A study of Brassica oleracea with 107 samples.

Results

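The step examined here was the last interval of the 16 °C seed course in the endosperm of Brassica oleracea (cabbage, broccoli and their relatives), from day 15 to day 22, with day 18 as the midpoint. Its members were the genes listed at 1 TPM or more in at least 1 of the 3 columns of those days, which gave 11857 of the 16338 genes in the authors' endosperm table. TPM is a transcript's abundance per unit of its length, set so that a library adds up to 1000000. Days 15 and 22 stood for 3 libraries each and day 18 for 2, that is 8 of the 107 libraries of the series. Per the labels' protocols all plants were raised at 21 °C up to bolting. They were next kept at 16 °C while their embryos grew to the bent-cotyledon stage, and those of this course then remained at 16 °C. Endosperm libraries of days 7 to 22 came from the Ovation kit and all others from a standard Illumina protocol. The other groups used for comparison were endosperm at 26 °C, endosperm returned from 26 °C to 16 °C (recovery), endosperm of a series labelled in hours 1, 24 and 72 at 16 °C or 26 °C, and embryo at 16 °C. Each of these had 3 libraries per time.

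In seeds of the cabbage family the endosperm feeds the young embryo and is largely used up as the embryo fills the seed. A thin living layer of it remains around the mature embryo, inside a seed coat that dies and hardens as the seed dries. During late maturation the embryo and the remaining endosperm store protein and oil and gather transcripts for proteins that protect cells in the dry state, much of it under the hormone abscisic acid. The fraction sampled here held endosperm and seed coat together, so changes of these tissues are seen as 1 sum.

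The authors' tables give 1 value per group, so no value below has an SD or an n, no difference has a replicate check and no p-value is given. Read depth is unknown, since TPM does not keep it. Higher and lower below mean a change of log2(TPM + 1) by 1 unit or more, here called 2-fold, and for weakly expressed genes this scale makes changes look smaller. The authors' tables hold selected genes, named as differentially expressed, so their changes are not independent evidence that the days differ. Of the 11857 identifiers, 0 matched a reference list of 53125 genes, and the files give no gene names. Genes therefore appear by identifier, with no function. In bulk tissue fewer cells of a type and less RNA per cell cannot be told apart. On day 18 the endosperm column labelled recovery differed 2-fold from 16 °C in 5377 members (45.3%), and the one labelled 26 °C did so in 3182 (26.8%). From 26 °C on day 15, the column labelled 26 °C differed 2-fold in 1719 members and the one labelled recovery in 3582. From recovery on day 22 these counts were 3369 and 1784, and from 26 °C on day 22 they were 4506 and 2354. The smaller count lay under the matching label for 26 °C on day 15 and recovery on day 22, but not for 26 °C on day 22. Whether the labels of these day 18 columns were exchanged could not be settled from the files. Each value of these columns is therefore given under its label with that limit. The comparisons within 16 °C and from day 15 to day 22 do not use them.

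The tissue label was checked with genes that differed at least 8-fold between embryo and endosperm on day 0 at 16 °C, when both tissues had the same library kit. The 632 genes preferential to endosperm held 38.0%, 41.7% and 39.0% of all endosperm TPM on days 15, 18 and 22. The single gene Bo4g163690 made up 27.3%, 30.5% and 28.6% of all TPM, which is most of that share. In embryo on the same days, with the standard kit in place of the Ovation kit, the 632 genes held between 0.477% and 0.722%. The 367 genes preferential to embryo held 3.82%, 4.26% and 5.42% of the endosperm TPM, against 45.2% to 49.8% in embryo. The label held for all 3 days. With a stricter list, of genes at least 5 log2 units higher in embryo, the embryo share was 0.470%, 1.33% and 1.23%. The day with the highest share thus depended on the list, and single genes weighed on both lists. Bo7g111280, on the stricter list, was at 163, 5392 and 936 TPM in endosperm on days 15, 18 and 22. Bo1g053590, on the longer list only, was at 22988, 16953 and 25650 TPM.

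From day 15 to day 22, 814 genes were at least 2-fold higher and 687 were at least 2-fold lower. These are 6.87% and 5.79% of the members. Another 7405 genes (62.5%) stayed within 0.5 log2 units. The median log2 difference was -0.15, so the TPM of the typical gene was slightly lower on day 22. It was -0.094 with a scaling that left out the 10 most abundant genes and -0.079 after median centring. The size of this shift thus depended on the scaling. After centring each column on its median, 923 genes were higher and 567 lower. With 0.1 in place of 1 added to TPM, 1136 genes were higher and 1263 lower. Which direction held more genes over the step therefore depended on the value added. On the log2(TPM + 1) scale the larger changes were mostly upward. At least 4-fold, 230 genes were higher and 43 lower, and at least 8-fold, 68 were higher and 6 lower. Many genes lay near the limit, with 104 genes between 1 and 1.1 log2 units higher and 147 between 0.9 and 1. On the lower side the numbers were 159 and 221.

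The share of the transcripts held by the higher and lower genes is given here as a description. The values of days 15 and 22 chose both groups, so the direction of their change was fixed. The 814 higher genes held 1.78% of all TPM on day 15, 3.77% on day 18 and 6.16% on day 22. The 687 lower genes held 3.32%, 2.19% and 1.11% on the same days. Changes occurred at every level of abundance from a mean of 1 TPM upward. Among genes with a mean under 1 TPM over the 3 days, 8.35% were higher and 3.54% lower. Such genes became members only through a day at 1 TPM or more. The filter thus selected them to vary between days, and their shares are a description. Among the 663 genes at 100 TPM or more, 10.1% were higher and 5.73% lower. In between, the share that was higher ran from 5.82% to 6.87% and the share that was lower from 5.51% to 6.64%.

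With 5 TPM required on the day of the larger value, the gene with the largest gain was Bo8g105070, at 0.875, 1.51 and 68.9 TPM on days 15, 18 and 22. Next was Bo3g094130, at 0.342, 0.0386 and 44.9 TPM. Both were still low on day 18, with log2 differences of 5.22 and 5.10 from day 15 to day 22. The gene with the largest loss was Bo4g188260, at 21.7, 0.777 and 0.320 TPM. It was followed by Bo3g079930, at 48.7, 3.82 and 2.99 TPM. Both losses were nearly complete by day 18, and their log2 differences from day 15 to day 22 were -4.10 and -3.64.

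**Figure D1:**
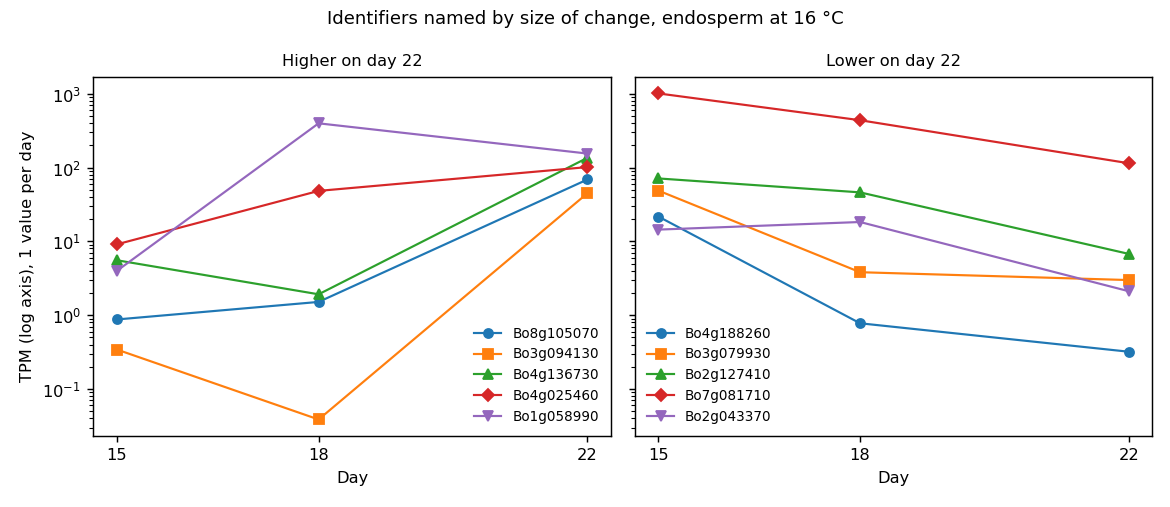
TPM (log axis) on days 15, 18 and 22 of endosperm at 16 °C for 10 named identifiers, 1 value per day, with no error since each group has 1 value. Bo8g105070, Bo3g094130 and Bo4g136730 are low on day 18 and high on day 22, while Bo4g188260 and Bo3g079930 are already low on day 18.

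Day 18 divided the step unevenly. Between days 15 and 18, 147 genes (1.24%) were higher and 197 (1.66%) lower. Between days 18 and 22, 705 (5.95%) were higher and 301 (2.54%) lower. The intervals last 3 and 4 days, and both use the day 18 column, with opposite sign. Centring on the median turned the split of the first interval to 196 higher and 119 lower and left that of the second at 644 and 361. Which direction prevailed in the first interval therefore depended on the scaling.

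The position of day 18 within the step was compared between higher and lower genes. For each gene the log2 difference reached on day 18 was taken as a share of its difference from day 15 to day 22. The median share was 17.3% over the 814 higher genes, with quartiles of -5.45% and 44.4%. It was 40.7% over the 687 lower genes, with quartiles of 23.1% and 58.8%. After median centring these medians were 24.7% and 32.3%, so the gap between the groups was smaller but had the same direction. With a 4-fold limit they were 8.76% and 39.3%. On a straight line between the end days the share would be 42.9%. In 255 of the higher genes (31.3%) the day 18 value lay below that of day 15, while 54 of the lower genes (7.86%) lay above it. Both shares are without median centring. Over all members the change from day 15 to day 18 had a median of -0.13 log2 units and an upper quartile of 0.09. Most members thus lay below their day 15 value on day 18. The median higher gene gained 0.27 log2 units to day 18 and 1.25 units after it. The median lower gene changed by -0.54 and then by -0.77 log2 units.

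**Figure D2:**
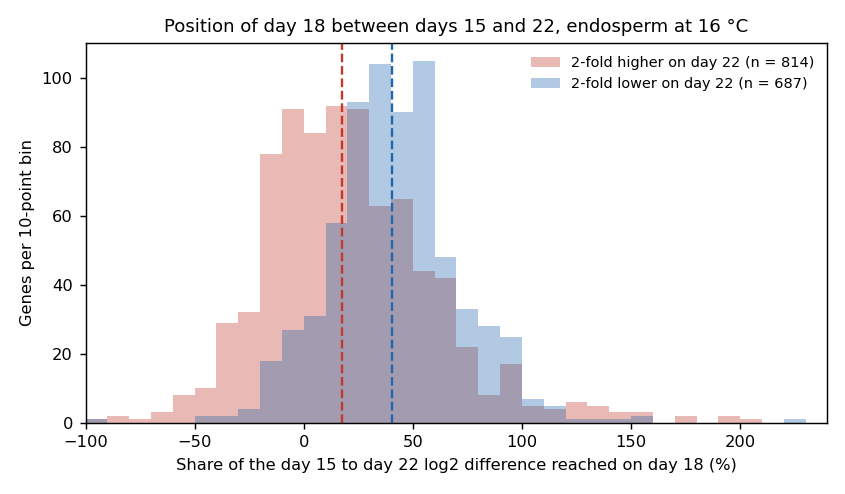
Genes per bin of 10 percentage points by the share of their day 15 to day 22 log2 difference reached on day 18, for the 814 higher (red) and 687 lower (blue) genes of endosperm at 16 °C, with dashed lines at the medians. The red median is at 17.3% and the blue median at 40.7%.

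A gene was called late when no more than 50% of its difference was reached on day 18, and early otherwise. Of the higher genes, 642 (78.9%) were late and 156 (19.2%) early. The late ones had median levels of 2.31, 2.53 and 11.0 TPM on days 15, 18 and 22. The early ones were at 4.58, 12.5 and 13.8 TPM. These values chose the classes and are a description. Of the lower genes, 429 (62.4%) were late and 256 (37.3%) early. The late ones had medians of 14.4, 10.7 and 4.62 TPM and the early ones of 8.81, 4.09 and 2.87 TPM. A further 16 higher and 2 lower genes had a peak or trough on day 18 and were kept apart.

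Early higher genes included Bo4g025460, at 9.12, 48.2 and 101 TPM on days 15, 18 and 22, and Bo1g107090, at 0.542, 5.97 and 9.26 TPM. The largest gains of the second interval were those of Bo4g136730, at 5.54, 1.92 and 136 TPM, and of Bo3g094130, given above. Among late lower genes were Bo2g127410, at 71.1, 46.1 and 6.75 TPM, and Bo7g081710, at 1008, 437 and 114 TPM. Bo7g081710 had been at 4547 TPM on day 7, so the value on day 22 was low against that day as well. Bo2g043370 was at 14.4 and 18.3 TPM on days 15 and 18 and at 2.11 TPM on day 22, the largest loss of the second interval.

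Some genes had day 18 outside the range of the end days. In 28 genes day 18 was at least 2-fold above both days 15 and 22, and in 33 it was at least 2-fold below both. Bo7g111280 was at 163, 5392 and 936 TPM on days 15, 18 and 22. Bo1g058990 was at 3.99, 397 and 155 TPM. These were the largest gains of the first interval, with log2 differences of 5.04 and 6.32. The trough with the largest drop from day 15 was that of Bo9g011480, at 16.5, 0.279 and 33.0 TPM. Bo1g056950 was at 23.9, 1.04 and 7.19 TPM.

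Embryo-preferential genes of day 0 were 229 of the 11857 members (1.93%), and their share was larger among genes that were higher on day 18. Bo7g111280, which is on that list, was at 145316 TPM in embryo at 16 °C on day 18. Bo1g058990 is not on it. That gene was listed at 0 in embryo on day 0, and was at 1028 TPM there on day 18 and at 2573 TPM in endosperm at 26 °C on day 22. Of the 28 genes with a peak on day 18, 13 were among the embryo-preferential genes of day 0, against 1 of the 33 genes with a trough. Of the 147 genes higher on day 18 than on day 15, 40 (27.2%) were embryo-preferential. Of the 705 genes higher on day 22 than on day 18, 30 (4.26%) were. Only genes also in the embryo table could be on the list. These were 115 of the 147 genes, 488 of the 705 and 7422 of the 11857 members. Without the embryo-preferential genes 107 genes were higher in the first interval and 15 had a peak. The summed level of the 28 peak genes was 309 TPM on day 15, 7231 TPM on day 18 and 1597 TPM on day 22. Most of this sum was Bo7g111280, and the median gene of the class was at 1.72, 7.43 and 2.13 TPM. Day 18 was also the day with 2 libraries. The part that embryo RNA has in these values was not tested.

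The same was seen with a list drawn on day 7, when the tissues had different library kits. Of the 207 members at least 3 log2 units higher in embryo than in endosperm on day 7, 48 (23.2%) were higher in endosperm on day 18 than on day 15. Of the 3272 members within 1 log2 unit between the tissues, 23 (0.703%) were. In the second interval these shares were 11.6% and 6.69%. On the lower side of the second interval they were 9.18% and 1.71%, against 1.45% and 1.41% in the first. Most embryo-high genes did not pass 2-fold in either interval. Those that did lay mainly on the higher side before day 18 and on both sides after it. No test of that difference could be made.

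**Figure D3:**
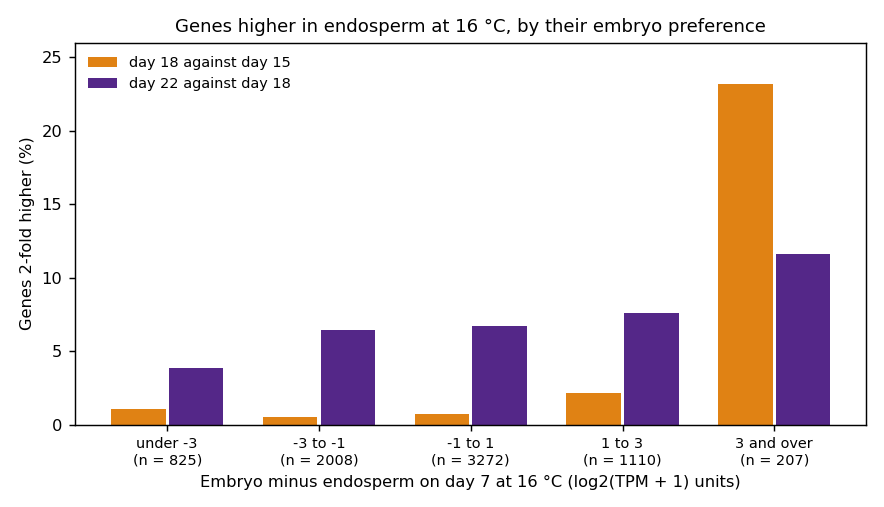
Percent of genes at least 2-fold higher in endosperm at 16 °C in the first interval (orange, day 18 against day 15) and the second (purple, day 22 against day 18), by the embryo minus endosperm difference on day 7 in log2(TPM + 1) units, for members in both tables. The first interval reaches 23.2% in the genes highest in embryo and is at 0.703% in genes within 1 log2 unit.

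A single transcript dominated the fraction on all 3 days. Bo4g163690 held 27.3%, 30.5% and 28.6% of all TPM on days 15, 18 and 22, and its log2 difference from day 15 to day 22 was 0.06. In embryo it was at 205, 438 and 486 TPM on those days. Bo1g053590 was at 22988, 16953 and 25650 TPM, and Bo8g106030 at 14890, 18951 and 26902 TPM. Bo8g106030 was under 1 TPM in embryo on the same days, whereas Bo1g053590 was at 70579, 38158 and 38172 TPM there. The 10 most abundant genes together held 33.7%, 37.2% and 37.1% of TPM, and the 100 most abundant 42.9%, 46.8% and 46.8%. None of the 3 genes passed 2-fold over the step.

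The genes of the step had different histories earlier in the course. On day 7, with the same library kit, the 814 higher genes had a median level of 1.73 TPM and the 687 lower genes one of 15.04 TPM. On days 15 and 22 the medians were 2.64 and 12.0 TPM for the higher genes, and 11.5 and 3.71 TPM for the lower genes. The values of days 15 and 22 chose these groups and are a description. On day 0, in libraries of the other kit, the higher genes had a median of 0.868 TPM and 47.2% of them were at 1 TPM or more. The lower genes had a median of 22.2 TPM and 96.7% were at 1 TPM or more, against 89.3% of all members.

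At 26 °C the order of the 2 medians on day 15 was the reverse of that at 16 °C. The higher genes had median levels of 6.53, 14.5, 16.4 and 21.9 TPM in the 26 °C columns of days 7, 15, 18 and 22. The lower genes had medians of 10.2, 3.94, 2.44 and 1.70 TPM. In the column labelled recovery on day 18, which may have been exchanged with that of 26 °C, the medians were 30.8 and 2.13 TPM. On day 15 at 26 °C the median level of the higher genes was thus near the 12.0 TPM of day 22 at 16 °C, and that of the lower genes near its 3.71 TPM. The genes within 0.5 log2 units had medians between 6.97 and 10.6 TPM in the same 4 columns.

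**Figure D4:**
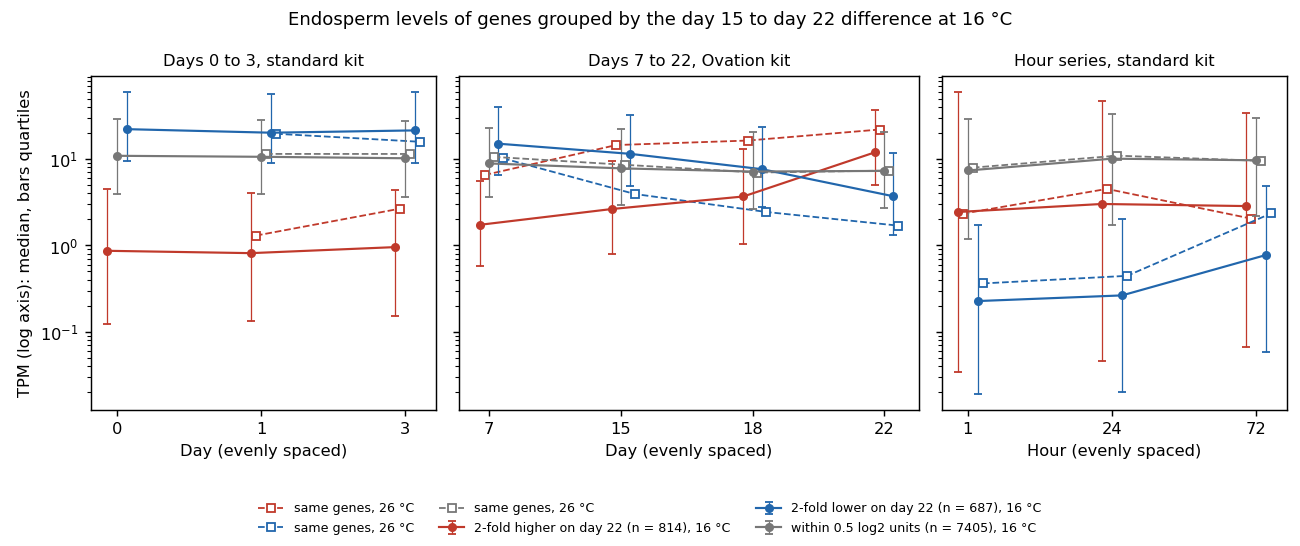
Median TPM (log axis, bars from the lower to the upper quartile over genes at 16 °C) of the 814 higher (red), 687 lower (blue) and 7405 near-constant (grey) genes in each endosperm column, filled and solid for 16 °C, open and dashed for 26 °C, in panels by library set. Day 15 and day 22 at 16 °C chose the groups, and at 26 °C the red and blue medians are already 14.5 and 3.94 TPM on day 15.

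The interval from day 15 to day 22 was then followed at 26 °C, where neither column had been used to choose the genes. Over all members 1888 genes (15.9%) were higher and 2950 (24.9%) lower at 26 °C, while median centring gave 2353 and 2278, and leaving the 10 most abundant genes out of the scaling gave 1573 and 3807. Of the 814 higher genes of 16 °C, 346 (42.5%) were also higher at 26 °C and 227 (27.9%) were lower. Of the 687 lower genes, 301 (43.8%) were also lower and 51 (7.42%) were higher. Both groups thus had a larger share than all members on the side they held at 16 °C. On the opposite side, the share of the higher genes was near that of all members and the share of the lower genes was below it. These 346 genes were 18.3% of all genes higher at 26 °C, and the 301 were 10.2% of all genes lower at 26 °C.

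Bo8g105070 was among the higher genes at both temperatures, at 2.504 TPM on day 15 and at 189 TPM on day 22 at 26 °C. Bo3g094130 had already reached 89.5 TPM on day 15 at 26 °C and was at 80.4 TPM on day 22. Bo9g005900, among the genes with the largest gain at 26 °C, was at 57.9 and 7353 TPM there and at 10.5 and 68.6 TPM at 16 °C. Bo3g081700 was at 0.226 and 228 TPM at 26 °C and at 0.0441 and 1.69 TPM at 16 °C. Bo8g007110 went the other way at 26 °C, at 262 and 1.78 TPM on days 15 and 22, against 69.2 and 353 TPM at 16 °C. Its order of days was thus opposite at the other temperature. Bo2g003890 was at 173 and 1.58 TPM at 26 °C and at 72.6 and 113 TPM at 16 °C.

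**Figure D5:**
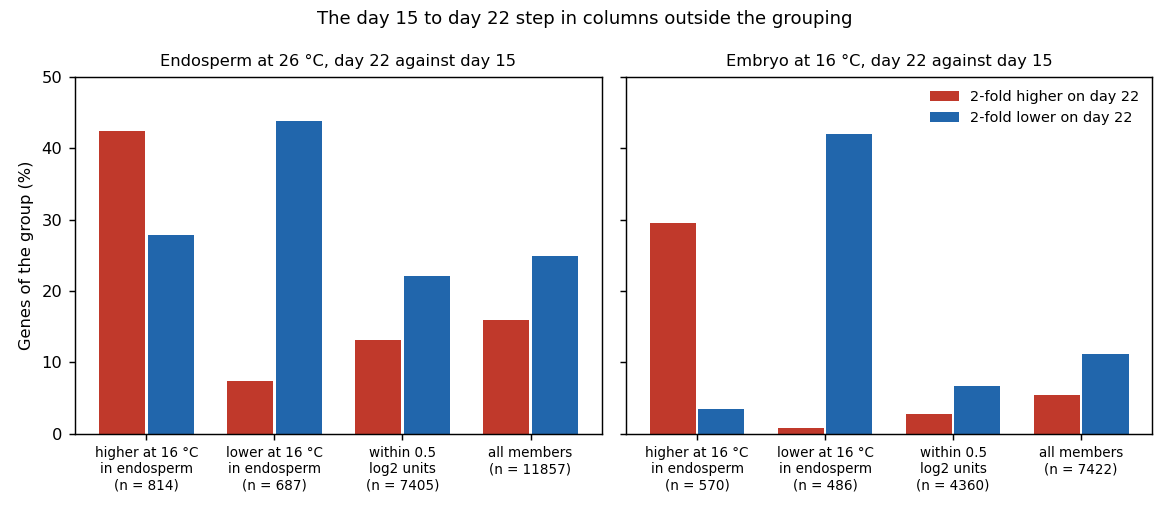
Percent of genes at least 2-fold higher (red) or lower (blue) on day 22 than on day 15 in endosperm at 26 °C (left) and in embryo at 16 °C (right), for the gene groups set by endosperm at 16 °C and for all members. At 26 °C the group higher at 16 °C has 42.5% higher and 27.9% lower genes, against 15.9% and 24.9% of all members, and in embryo it is 29.5% higher and 3.51% lower.

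In the recovery columns the interval from day 18 to day 22 held 646 genes (5.45%) that were higher and 1138 (9.6%) that were lower, or 1016 and 613 after median centring. Of the 814 higher genes, 59 (7.25%) were higher there and 125 (15.4%) lower. Of the 687 lower genes, 59 (8.59%) were higher and 104 (15.1%) lower, so both groups had similar shares on each side. With the column labelled 26 °C on day 18 in place of the one labelled recovery, 301 of the 814 genes (37.0%) were higher, against 15.3% of all members. Of the 687 lower genes, 155 (22.6%) were then lower, against 13.1% of all members. The result thus rests on which of these day 18 columns is used, a choice made after seeing the data.

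Embryo at 16 °C was sampled on the same days. Of the members, 7422 are in both tables. From day 15 to day 22, 402 of these (5.42%) were higher in embryo and 830 (11.2%) lower, or 671 and 462 after median centring. Of the 570 endosperm-higher genes in both tables, 168 (29.5%) were also higher in embryo and 20 (3.51%) lower. Of the 486 endosperm-lower genes, 204 (42.0%) were also lower in embryo and 4 lay on the other side. Those 168 genes were 41.8% of all genes higher in embryo, and the 204 were 24.6% of all genes lower in embryo. The endosperm-lower genes had a median embryo level of 4.50 TPM on day 15 and 1.60 TPM on day 22, after 21.1 TPM on day 0.

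The genes with the largest gains in embryo were also higher in endosperm, at far lower levels. The library kits of the 2 tissues differed on these days. Bo3g035510 was at 8.83 and 291 TPM in embryo on days 15 and 22, and at 0.258 and 6.17 TPM in endosperm. Bo4g013130 was at 15.003 and 261 TPM in embryo and at 0.0982 and 6.08 TPM in endosperm. Bo9g008350, with the largest loss in embryo among genes at 5 TPM or more, was at 57.9 and 3.67 TPM there and at 26.7 and 4.01 TPM in endosperm. Bo5g061110 was at 495 and 42.3 TPM in embryo and at 98.2 and 34.97 TPM in endosperm. The other 4435 members are not in the embryo table, and 244 of them (5.50%) were higher and 201 (4.53%) lower in endosperm. Bo3g094130, Bo4g188260, Bo3g079930, Bo2g127410 and Bo7g081710 were among these genes.

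The hour series gave a further view of the same genes. What its hours are counted from is not stated in the labels, and the series title names germination beside seed development. It shares the standard library kit with days 0 to 3, not with days 7 to 22. At hour 1 at 16 °C the 687 lower genes had a median of 0.227 TPM, and 31.4% of them were at 1 TPM or more, against 68.6% of all members. On day 0 their median had been 22.2 TPM with the same kit. The genes within 0.5 log2 units were at 10.9 TPM on day 0 and 7.37 TPM at hour 1. At hour 72 the lower genes had a median of 0.777 TPM at 16 °C, with 46.1% at 1 TPM or more. At 26 °C their median was then 2.35 TPM, with 61.6% at 1 TPM or more, against 80.4% of all members.

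The 814 higher genes were split at hour 1. Of these, 225 (27.6%) were at 50 TPM or more, against 14.9% of all members, with a median of 193 TPM there and of 1.65 TPM on day 0. Another 252 (31.0%) were under 0.1 TPM, against 15.9% of all members. The 2 sets had median levels of 5.25 and 1.58 TPM on day 15 and of 23.6 and 9.46 TPM on day 22. Together the 814 genes held 21.0% of all TPM at hour 1, 0.746% on day 0 and, with the other kit, 6.16% on day 22. Bo4g025460 was at 9517 TPM at hour 1 and Bo8g105070 at 1034 TPM. Bo3g094130 was listed at 0 at hours 1, 24 and 72 at both temperatures, and Bo4g136730 did not pass 0.0375 TPM there.

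From hour 1 to hour 72 at 16 °C, 3256 members (27.5%) were higher and 2073 (17.5%) lower, or 2242 and 3038 after median centring. Of the 814 higher genes 144 (17.7%) were higher and 201 (24.7%) lower. Of the 687 lower genes 172 (25.04%) were higher and 51 (7.42%) lower. On the log2(TPM + 1) scale a gene under 1 TPM at hour 1 cannot be 2-fold lower later. At 1 TPM or more at hour 1 were 216 of the 687 genes (31.4%) and 441 of the 814 (54.2%), against 68.6% of all members. The shares that were lower are therefore not comparable between these groups. Bo6g109040, with the largest gain of the hour series, was at 0.306 and 1165 TPM at hours 1 and 72, while on days 15 and 22 it was at 59.0 and 81.2 TPM. Bo7g114400 was at 0.541 and 856 TPM in the hour series and at 1.39 and 0.677 TPM on those days. Bo3g054410 was at 567 and 1.78 TPM in the hour series and at 8.13 and 4.40 TPM on days 15 and 22.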

How the data were processed

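RNA-seq of endosperm with seed coat and of embryo was used as the authors deposited it, in TPM, with 1 column per group. Tools named in the submitters' processing notes are STAR 2.5, featureCounts and cutadapt 1.9.1. Not given in the sources used here are the genome build, the strand setting, the selection of genes and the way libraries were combined. Kit and day cannot be told apart between endosperm of days 7 to 22 (Ovation) and the other sets, per the labels' protocols. No count of changed genes in endosperm crosses kits, and levels set side by side across kits are named as such.

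Values were compared as log2(TPM + 1) with Python 3.11.15, pandas 2.3.3 and numpy 2.4.6. The planned limma test would need 1 value for each library, so a rule of size, 2-fold, took its place. The counting was tested on simulated data without noise and with low starting levels raised, so weakly expressed genes were not covered. Members, lists and comparisons were chosen with earlier results of these data known. Genes were named by the largest log2 differences, 2 in each direction for every comparison and time class, if 5 TPM was reached in the column with the larger value. The most abundant genes of days 15 and 22 were added. Alternatives were a pseudocount of 0.1, median centring, a scaling that leaves out the 10 most abundant genes, no filter, a filter of 5 TPM, a 4-fold limit, the share of days in place of 50% for early and late, sums over listed genes only, and a stricter list of tissue genes. The planned lists of genes by function and of cell type markers could not be looked up, since no identifier has a name.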

Additional observations from a re-analysis of the deposited data

Results flagged for a closer look

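Gene counts that went opposite ways under the same interval are given here, as values that were not tested, since each group has 1 column. Among genes at least 2-fold higher on day 22 than on day 15 in endosperm at 16 °C, 227 were at least 2-fold lower over the same days in endosperm at 26 °C. That is 27.9% of those genes, near the 24.9% of all members that were lower at 26 °C. Among genes lower at 16 °C, 51 (7.42%) were higher at 26 °C, below the 15.9% of all members. Between endosperm and embryo at 16 °C the corresponding numbers were 20 (3.51%) and 4 (0.823%). Of all members in both tables, 11.2% were lower and 5.42% higher in embryo, so both shares lay below these.

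The identifiers that follow were chosen after their values were seen, as the most opposite pairs at 5 TPM or more. Bo1g053760 was at 0.518, 1.91 and 12.9 TPM in endosperm at 16 °C on days 15, 18 and 22, and at 42.7 and 0.223 TPM on days 15 and 22 at 26 °C. In embryo at 16 °C its values on days 15 and 22 were 2.79 and 0.777 TPM. Bo6g115900 was at 45.6 and 14.0 TPM on days 15 and 22 at 16 °C, and at 8.52 and 189 TPM at 26 °C. Bo3g024810 was at 5.08 and 22.4 TPM in endosperm and at 24.7 and 3.46 TPM in embryo. Bo3g017500 was at 18.7 and 7.69 TPM in endosperm and at 8.01 and 40.7 TPM in embryo, and Bo3g170670 at 35.5 and 10.9 TPM in endosperm and at 6.16 and 22.8 TPM in embryo.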

How the results depend on the processing

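No paired analysis was possible because each group has 1 column and no column carries a replicate number. Leaving out a library could not be run for the same reason. Of 226 values under alternative settings, 167 moved by no more than 1.5 times (0.1 log2 units for medians) and 59 by more. The cause was not tested where it is not given. Low TPM values limit the counts, as the pseudocount shows. Alternatives without embryo genes and with the other day 18 column were added after seeing the data.

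With a pseudocount of 0.1 in place of 1, 1136 genes were higher and 1263 lower from day 15 to day 22 at 16 °C. The first interval then held 309 higher and 657 lower genes and the second 1063 and 666. Recovery held 1274 and 1761, and embryo 685 and 1534. There were 256 early higher, 462 early lower, 789 late lower, 57 peak and 241 trough genes. Median centring gave 119 lower genes and a median of -0.0036 in the first interval, 1016 higher and 613 lower genes in recovery, 671 and 462 in embryo, and 164 early lower genes. Scaling without the 10 most abundant genes gave 50 trough genes. With no filter, and so with more genes tested, 2933 genes were higher at 26 °C and 973 in recovery. With a filter of 5 TPM, and so with fewer, 115 genes were lower in the first interval and 469 higher in the second. That filter left 1053 higher at 26 °C, 306 higher and 738 lower in recovery, and 1335 lower in the hour series.

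A 4-fold limit, stricter by construction, left 230 higher and 43 lower genes over the step, 23 and 11 in the first interval and 188 and 11 in the second. It left 618 and 837 at 26 °C, 78 and 83 in recovery, 89 and 115 in embryo, and 1398 and 819 in the hour series. The classes then held 31 early higher, 198 late higher, 13 early lower, 30 late lower, 2 peak and 4 trough genes. Without embryo-preferential genes of day 0 or day 7, the peak class fell to 15 or 14 genes. With the column labelled 26 °C on day 18 in place of recovery, 1811 genes were higher in that comparison.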

Other observations

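Bo4g188260, with the largest loss of the step among genes at 5 TPM or more, had later values that depend on the labels of the day 18 columns. It was between 15.9 and 30.0 TPM in endosperm at 16 °C from day 0 to day 15, across both library kits. On days 18 and 22 it was at 0.777 and 0.320 TPM. At 26 °C its values on days 7, 15, 18 and 22 were 24.6, 1.81, 26.2 and 4.94 TPM. In recovery they were 2.16 TPM on day 18 and 26.7 TPM on day 22. If the labels 26 °C and recovery of day 18 were exchanged, which could not be settled, the values of days 15, 18 and 22 at 26 °C would be 1.81, 2.16 and 4.94 TPM, and those of recovery 26.2 and 26.7 TPM. The gene was listed at 0 in every column of the hour series.

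Bo9g011480, with the largest drop from day 15 among the troughs of day 18 at 16 °C, was at 0.279 TPM there but at 167 TPM in the column labelled 26 °C on day 18 and at 1510 TPM at hour 1 at 16 °C. Bo1g056950, the next of these, was at 1.04 TPM on day 18 at 16 °C, at 342 TPM on day 22 at 26 °C and at 248 TPM at hour 72 at 16 °C. Both were at 0.219 TPM or less in the 16 °C columns from day 0 to day 7.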
